A study of Mus musculus with 6 samples.

Results

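Cited1, Foxa1, Prom1, Tph1 and Stc2 are 5 genes typical of hormone-sensing luminal cells, the estrogen receptor-positive class of the milk duct lining. They were followed in mammary glands of mice that overexpress luteinizing hormone (LH) and of wild type mice. All probe sets that the platform annotation assigns to 1 of these genes alone were taken, which gave 7 of the 10833 probe sets with 1 gene (5 of 8251 genes). RNA was measured on 6 Affymetrix mouse arrays, and each array held RNA pooled from the thoracic mammary glands of 3 mice. The 3 wild type pools came from 9 virgin F1 CF-1/FVB mice aged 16 weeks, and the 3 LH transgenic pools from 9 virgin mice of that background and age that carry an LH transgene. The sources used here do not give the promoter of that transgene, and no label names a batch. The 5 genes were picked with their difference between these groups already known, so that difference is described below without a test.

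Hormone-sensing luminal cells carry receptors for estrogen, progesterone and prolactin and pass the signal to neighbouring cells through secreted factors. The other luminal class, alveolar cells and their progenitors, has little of these receptors and makes milk proteins. LH acts on the ovary, where it stimulates the making of sex steroids. Among the 5 genes, Foxa1 encodes a forkhead factor that opens chromatin for the estrogen receptor, and Cited1 a co-regulator that binds the CBP and p300 coactivators and the estrogen receptor. Prom1 (CD133) encodes a membrane glycoprotein used to sort estrogen receptor-positive luminal cells. Tph1 encodes the rate-limiting enzyme of serotonin synthesis outside the brain, and Stc2 a secreted glycoprotein, stanniocalcin-2.

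The promoters of 3 of the genes are shown because they bracket the pattern described below. Cited1 had the largest difference between groups of the 5, Foxa1 encodes the forkhead factor, and Stc2 had the smallest difference of the 5 tested probe sets. Each sequence is the 250 bases before a RefSeq start (build GRCm38.p6), given 5′ to 3′ on the minus strand, from which all 5 genes are read. Capitals mark GGTCA or its complement TGACC, 1 arm of the palindrome that estrogen receptors bind, and TGTTTAC or its complement GTAAACA, a motif of forkhead factors.
Cited1: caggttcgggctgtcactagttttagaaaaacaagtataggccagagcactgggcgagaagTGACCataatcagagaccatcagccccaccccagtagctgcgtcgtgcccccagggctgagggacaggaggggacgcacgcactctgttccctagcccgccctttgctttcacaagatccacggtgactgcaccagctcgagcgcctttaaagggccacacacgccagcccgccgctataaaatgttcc
Foxa1: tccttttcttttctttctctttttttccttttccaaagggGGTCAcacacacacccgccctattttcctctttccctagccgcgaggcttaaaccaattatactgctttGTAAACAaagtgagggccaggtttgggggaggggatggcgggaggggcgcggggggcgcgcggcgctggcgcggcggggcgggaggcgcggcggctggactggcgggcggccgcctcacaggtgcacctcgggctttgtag
Stc2: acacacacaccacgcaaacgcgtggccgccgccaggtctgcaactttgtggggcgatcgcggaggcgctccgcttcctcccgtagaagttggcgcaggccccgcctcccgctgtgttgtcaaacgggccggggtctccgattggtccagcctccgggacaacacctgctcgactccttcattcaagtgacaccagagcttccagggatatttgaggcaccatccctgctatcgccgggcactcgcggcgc
The Cited1 window lies at chrX:102252182-102252431, directly before the gene (X, 102247378 to 102252181), and is the outermost of 3 Cited1 starts in the table. The Foxa1 window lies at chr12:57546112-57546361, inside the span of the gene record (57540628 to 57548029). The Stc2 window lies at chr11:31370062-31370311, directly before the gene. Prom1 (chromosome 5) and Tph1 (chromosome 7) have 2 starts each in the table.

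Over the 9 windows of the 5 genes, GGTCA or TGACC was found in 4 windows of 3 genes (Cited1, Foxa1 and the inner Tph1 start), and in 35.24% of all 32851 windows of that length. The whole palindrome GGTCANNNTGACC was in 0 of the 9 windows and in 0.06% of all windows. The forkhead motif was in 1 window, that of Foxa1 itself, against 3.17% of all. TGTTCT (either strand), an arm of the progesterone receptor site, was in 1 window (the inner Prom1 start) against 16.08% of all. The STAT motif TTCNNNGAA and the GATA motif AGATAA (either strand) were in 0 of the 9 windows, against 7.02% and 9.99% of all. TATAAA (either strand) was in 2 of the 3 Cited1 windows and in 12.37% of all. These matches describe letters in short windows, not binding.

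Values are MAS5 signals, the authors' linear intensity per probe set, given as mean ± SD over the 3 arrays of a group. Differences (LH transgenic minus wild type) were taken after log2(signal + 80.0), which understates the change of dim probe sets, and SE is over the 3 arrays of each group. Testing needed a 6-array mean of 336.0 or more, and 5 of the 7 probe sets passed, 1 for each gene. Signals of different probe sets are not comparable with each other as amounts of RNA. In bulk tissue, fewer cells of a type and less RNA per cell cannot be told apart.

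Cited1 had signals of 7779.1, 4773.2 and 8024.5 in wild type pools 1, 2 and 3, and of 1228.9, 960.9 and 866.2 in LH transgenic pools 1, 2 and 3. Every wild type pool lay above every LH transgenic pool, and the lowest wild type value was 3.88 times the highest LH transgenic value. The means were 6859 ± 1810.5 and 1019 ± 188, a ratio of 6.73 and a log2 difference of -2.64 (SE 0.28). This was the 6th largest decrease among the 7453 tested probe sets. Leaving out 1 array at a time gave -2.87 to -2.50.

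Foxa1 had 3926.7, 2229.8 and 2515.7 in the wild type pools and 1185.9, 834.6 and 1535.9 in the LH transgenic pools. The groups did not overlap, but the gap was narrower than for Cited1, with the lowest wild type value at 1.45 times the highest LH transgenic value. The means were 2891 ± 908 and 1185 ± 351, and the log2 difference was -1.23 (SE 0.34), with a range of -1.42 to -0.99 over fits without 1 array. With the level of the skeletal muscle markers as a covariate it was -0.81. In the LH transgenic group Foxa1 and the brighter Prom1 and Tph1 probe sets were highest in pool 3, which had the highest muscle marker level. The dimmer Prom1 probe set was highest in pool 2 and the dimmer Tph1 probe set in pool 1. The part of muscle in these values was not tested.

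Prom1 has a pair of probe sets made from the same transcript accession. The brighter one had 1379.6, 1154.1 and 869.3 in the wild type pools and 272.2, 234.7 and 389.1 in the LH transgenic pools, with no overlap. Its means were 1134 ± 256 and 299 ± 80.5, a ratio of 3.80 and a log2 difference of -1.68 (SE 0.25). The dimmer one, below the filter, had 567.2, 280.6 and 393.1 in the wild type pools and 63.5, 88.6 and 61.7 in the LH transgenic pools. Its log2 difference was -1.67 (SE 0.26), close to that of the brighter probe set, and ranged from -2.50 with no pseudocount to -0.88 with a larger one.

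Tph1 had 1113.8, 851.5 and 1237.8 in the wild type pools and 392.3, 185.7 and 426.8 in the LH transgenic pools on its brighter probe set. The groups did not overlap, and pool 2 was the lowest of its group in both. The means were 1068 ± 197 and 335 ± 130.4, a ratio of 3.19 and a log2 difference of -1.51 (SE 0.33). The other Tph1 probe set was the dimmest of the 7, with 54.8, 29.1 and 80.4 in the wild type pools and 101.7, 31.9 and 75.9 in the LH transgenic pools. Its groups overlapped, its log2 difference was 0.14 (SE 0.26), and it did not carry the pattern of the brighter one. The sign of that small difference turned under 3 other settings.

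Stc2 had 1838.7, 970.4 and 1497.7 in the wild type pools and 991.4, 1213.5 and 913.2 in the LH transgenic pools. The groups overlapped, because wild type pool 2 lay within the range of the LH transgenic pools. The means were 1436 ± 437 and 1039 ± 156, and the log2 difference was -0.40 (SE 0.28). It was -0.21 when wild type pool 1 was left out and -0.65 when pool 2 of that group was, so single pools moved it by more than 1.5 times.

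**Figure D1:**
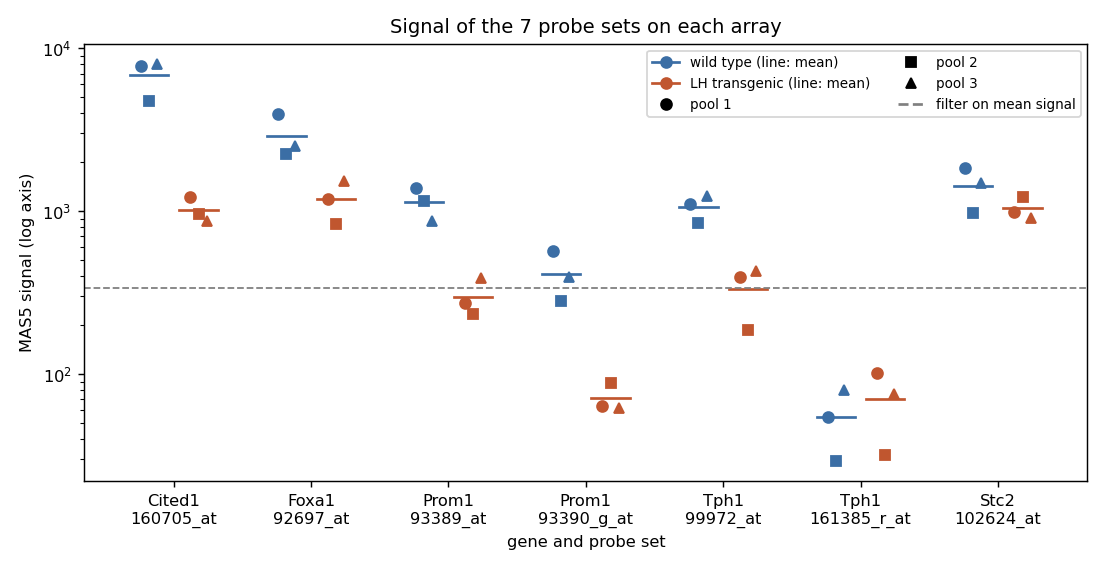
MAS5 signal (log axis) of the 7 probe sets of Cited1, Foxa1, Prom1, Tph1 and Stc2, with a point for each array, a marker shape for each pool and a line at each group mean. The dashed line is the filter at 336.0; in 5 probe sets every wild type point lies above every LH transgenic point, and in Stc2 and the dim Tph1 probe set the groups overlap.

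The groups did not overlap, with wild type higher, in 4 of the 5 probe sets above the filter, against 19.8% of all tested probe sets (40.4% in either direction). By gene these shares were 20.8% and 40.7%, and 21.7% of the 5731 tested genes were called. For scale, a limma adjusted p under 0.05 was found for 21.3% of the 7453 tested probe sets, with 10.8% lower and 10.5% higher in the LH transgenic glands. Nothing about the 5 genes is read from these shares, since they were chosen from the same contrast. The median log2 difference of the 5 was -1.51, beside 0.01 over the 5731 tested genes.

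The 5 genes did not share 1 order of pools within a group. Among the wild type pools, pool 2 was lowest for Cited1, Foxa1, Tph1 and Stc2, and pool 3 for the brighter Prom1 probe set. Among the LH transgenic pools, pool 2 was lowest for Foxa1, the brighter Prom1 probe set and Tph1, and pool 3 for Cited1 and Stc2. The dimmer Prom1 probe set was lowest in pool 2 of the wild type and in pool 3 of the LH transgenic group. The list of alveolar luminal genes had its highest mean in pool 2 of each group, 13.65 among wild type pools and 14.41 among LH transgenic pools (mean log2 signal of the list). Wild type pool 3 had the lowest alveolar mean, 12.75, and it had the highest Cited1 and brighter Tph1 signals of the 6 arrays. Foxa1, Stc2 and the brighter Prom1 probe set were highest in wild type pool 1. LH transgenic pool 3 had the lowest alveolar mean of its group, 14.13. In that group it had the lowest Cited1 and Stc2 signals and the highest Foxa1, brighter Prom1 and brighter Tph1 signals. With 3 pools in a group no relation between these levels can be tested.

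**Figure D2:**
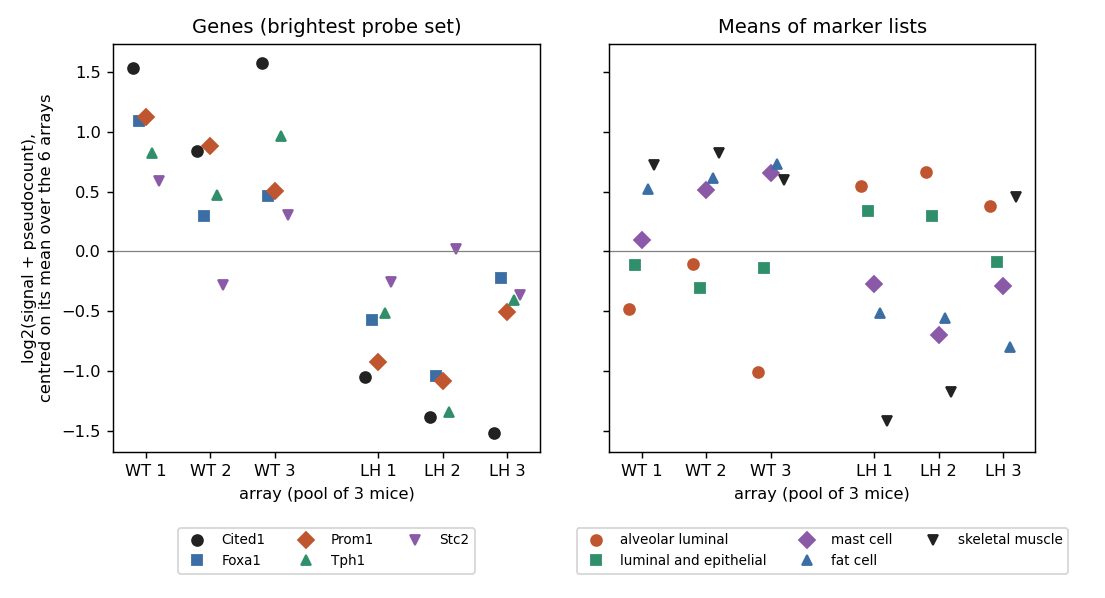
Level on each array, as log2(signal + 80.0) centred on its mean over the 6 arrays, for the brightest probe set of each of the 5 genes (left) and for the mean of 5 marker lists (right). Cited1, Foxa1, Prom1 and Tph1 lie above 0 in the wild type pools and below 0 in the LH transgenic pools, the alveolar list lies the other way, and the skeletal muscle list is high in LH transgenic pool 3 (12.09 before centring, against 10.22 and 10.47 in pools 1 and 2).

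Closeness of profiles was measured as the root mean square difference, in log2 units over the 6 arrays, between genes each centred on its own mean. Foxa1, Prom1 and Tph1 lay close to each other, with 0.28 between Foxa1 and Tph1, 0.31 between Foxa1 and Prom1, and 0.35 between Prom1 and Tph1. Cited1 lay 0.64 or more from each of the others, having the larger difference, and Stc2 0.56 or more. All 5 are lower on average in the LH transgenic pools, and the distance counts that difference together with the spread within groups. The tested genes nearest to Cited1 were Kcnk2 (0.22), a potassium channel gene, Itih2 (0.24) and Amy1 (0.30), beside a median of 1.36 over all tested genes. Nearest to Foxa1 were St3gal6 (0.15), the basement membrane gene Nid2 (0.20) and the transcription factor gene Ets1 (0.20), beside a median of 0.73. For Prom1 these were the growth factor receptor gene Fgfr2 (0.17), Pparg (0.20), the master regulator of fat cells, and Nbl1 (0.20), beside 0.90. For Tph1 they were the homeobox gene Meox2 (0.12), the folate transporter gene Slc19a1 (0.14) and the glycogen branching enzyme gene Gbe1 (0.17), beside 0.84. For Stc2 they were Dipk1b, Sipa1 and Hps4 (each 0.11), beside 0.42.

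The question whether other genes linked to hormone-sensing luminal cells moved the same way was put to a list of 20. Of these, 15 had a probe set of their own and 9 passed the filter. With limma and Benjamini-Hochberg adjustment over 5731 genes, 1 of the 9 rose and 1 fell, where over all genes 10% rose and 11.7% fell. The median log2 difference of the 9 was 0.02, the value of Rspo1, near that of all genes. The list is not confined to hormone-sensing cells, since Gata3 is a factor of luminal cells, so its median does not measure that class alone. These values cover only the 9 genes above the filter, and the 6 below it are given further on.

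The gene that fell was Myb, a transcription factor, with 1956.0, 1743.0 and 1778.9 in the wild type pools and 839.3, 896.9 and 1022.3 in the LH transgenic pools. Its log2 difference was -0.93 (SE 0.09, limma adjusted p 0.00207), and the groups did not overlap. The gene that rose was Pnmt, which encodes the enzyme that makes adrenaline from noradrenaline. It had 618.8, 775.5 and 692.2 in the wild type pools and 1355.7, 1681.4 and 1120.4 in the LH transgenic pools, a log2 difference of 0.91 (SE 0.18, limma adjusted p 0.00701). The dimmer tested probe set of Pnmt had 0.39 (SE 0.57) with overlapping groups, and the mean of both probe sets was not called. With skeletal muscle as a covariate both calls were lost (limma adjusted p 0.0536 for Myb).

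The other 7 tested genes of the list were not called. The paracrine mediators Wnt4, which acts downstream of progesterone, and Tnfsf11 (RANKL), the ligand that drives alveolar growth, had log2 differences of -0.44 (SE 0.28) and 0.40 (SE 0.38). Gata3, a transcription factor of luminal cells, had 0.19 (SE 0.26), with signals of 5086.3 to 8033.1 in the wild type and 5545.9 to 7777.0 in the LH transgenic pools. Fxyd2, a regulator of the sodium pump, had -0.75 (SE 0.36), and the calcineurin regulator gene Rcan1 -0.49 (SE 0.27). Ptges, an enzyme of prostaglandin E2 synthesis, had 0.41 (SE 0.14), and Rspo1, a Wnt enhancer, 0.02 (SE 0.25). Single pools made calls of 3 of these: Fxyd2 was called when wild type pool 3 was left out, Rcan1 when LH transgenic pool 1 was, and Ptges when LH transgenic pool 3 was.

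Esr1, the estrogen receptor gene itself, had 4 probe sets, all below the filter. The brightest had 96.9, 210.2 and 274.6 in the wild type pools and 417.9, 409.9 and 187.2 in the LH transgenic pools, and these ranges overlapped. Pgr, the progesterone receptor gene, had 33.7, 146.9 and 81.6 in the wild type pools and 154.3, 27.8 and 206.3 in the LH transgenic pools. The other Esr1 probe sets were dimmer. Of these, 1 had 86.1, 83.9 and 68.0 against 41.9, 29.8 and 28.5, lower in the LH transgenic pools without overlap (log2 -0.49, SE 0.07), and in the remaining ones the groups overlapped. The Esr1 probe sets thus differed in sign, and Pgr overlapped, so neither receptor had a measured direction. Msx2, a homeobox gene, had 82.8, 328.8 and 212.0 in the wild type pools and 29.3, 35.3 and 47.7 in the LH transgenic pools (log2 -1.20, SE 0.39). Tbx3, a T-box factor, had 205.6, 290.1 and 274.2 against 154.2, 140.1 and 136.9 (log2 -0.58, SE 0.12). Both lay lower in the LH transgenic pools without overlap. With no filter 2 of the 15 genes of the list fell, Myb among them, where 616 of all 8251 genes fell. The Wnt ligand gene Wnt5a lay higher without overlap (log2 0.40, SE 0.16) and Wnt7b overlapped (0.27, SE 0.43), and Prlr, Areg, Calca, Ly6a and Greb1 were not analysed here.

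**Figure D3:**
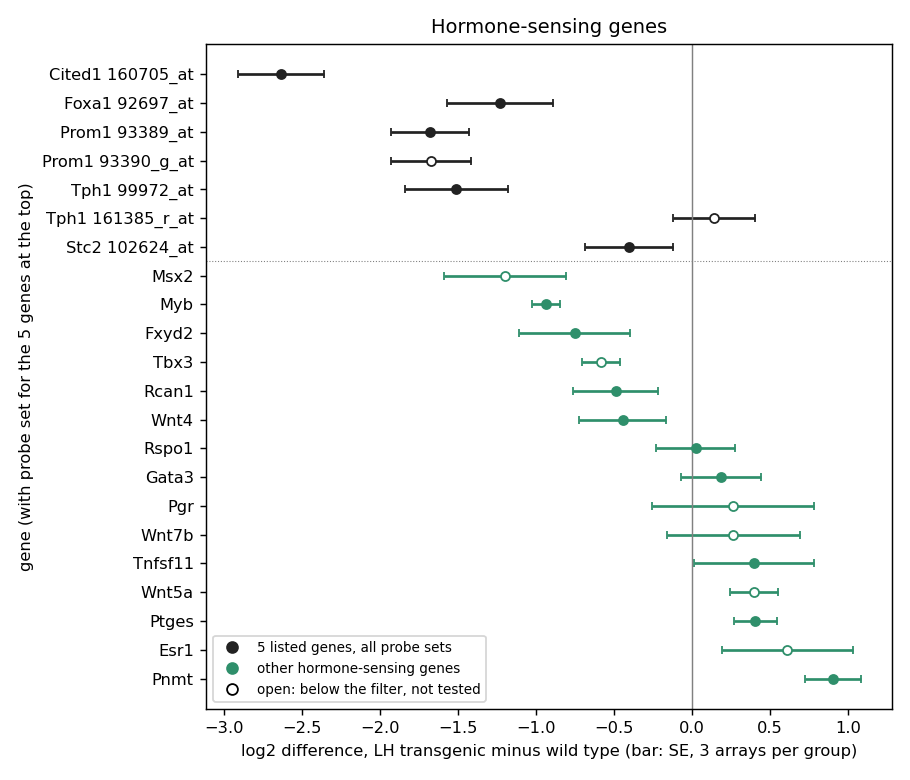
Log2 difference (LH transgenic minus wild type, bar: SE, 3 arrays per group) of the 7 probe sets of Cited1, Foxa1, Prom1, Tph1 and Stc2 in black and of 15 other hormone-sensing genes in green. Open points lie below the filter and were not tested; the black points reach -2.64 for Cited1, and the tested green points run from -0.93 for Myb to 0.91 for Pnmt.

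Of 14 tested genes that respond to estrogen or progesterone in mammary or uterine tissue, 3 fell and 1 rose, beside 11.7% and 10% of all genes. The median log2 difference of the 14 was -0.36. Wnt4 and Tnfsf11, neither called, also belong to the list of other hormone-sensing genes. Igf1, a growth factor gene, fell from 4789.6, 4579.6 and 5416.1 in the wild type pools to 1854.6, 1954.5 and 2639.9 in the LH transgenic pools (log2 -1.18, SE 0.17, limma adjusted p 0.00131), but its dimmer tested probe set had -0.27 (SE 0.19) and overlapping groups. Id4, an inhibitor of differentiation factors, fell from 1546.6 to 2048.1 across the wild type pools to 620.8 to 920.2 (log2 -1.10, SE 0.19, limma adjusted p 0.00299). Klf4, a zinc finger factor, fell by 0.84 (SE 0.31, limma adjusted p 0.031), a call that was lost on leaving out any single pool other than LH transgenic pool 3. Xbp1, a factor of the secretory pathway, rose by 0.79 (SE 0.19, limma adjusted p 0.008). The Klf4, Id4 and Xbp1 calls were lost with the muscle covariate (limma adjusted p 0.519, 0.0852 and 0.154), and with arrays scaled to their 9 bacterial hybridisation controls instead, Xbp1 had 0.10 (limma adjusted p 0.705).

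Among 9 relatives and partners of the 5 genes 2 were tested, and neither was called. Cited2, another member of the Cited family, had 4633.5, 4744.8 and 3055.6 in the wild type pools and 6474.6, 5167.2 and 8218.1 in the LH transgenic pools, without overlap and opposite in sign to Cited1 (log2 0.67, SE 0.28, limma adjusted p 0.0503). That p lay just above the threshold, and it was below 0.05 in some of the other settings. The coactivator gene Crebbp, whose product Cited proteins bind, had -0.04 (SE 0.11). Foxa2, Foxa3 and Stc1 were below the filter. Stc1 lay higher in the LH transgenic pools without overlap (log2 0.84, SE 0.24). Foxa3 lay lower without overlap (log2 -0.69, SE 0.24), and Foxa2 overlapped (log2 0.11, SE 0.07).

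Of the 5 tested genes of serotonin handling other than Tph1, 1 fell and none rose, where over all genes 11.7% fell and 10% rose, and the median log2 difference was 0.02. Maoa, the enzyme that breaks down serotonin and noradrenaline, fell from 2138.9, 2055.6 and 2202.3 in the wild type pools to 1141.3, 1278.4 and 1262.6 in the LH transgenic pools (log2 -0.76, SE 0.06, limma adjusted p 0.00358). The other 4 had no call. Mast cells can also make serotonin through Tph1. Their protease genes Cma1 (log2 -1.47, SE 0.43) and Tpsb2 (log2 -1.04, SE 0.22) fell, with limma adjusted p of 0.0095 and 0.00476, though the other tested Tpsb2 probe set had 0.19 (adjusted p 0.665). Of 9 mast cell genes 3 were tested, and the summed signal of the 9 was 7621.9 to 9891.2 in the wild type and 4408.0 to 7006.3 in the LH transgenic pools. The sum includes Kit, its largest member in every pool, which luminal progenitors also make (log2 -0.01, SE 0.23, not called). With the muscle covariate the calls of Maoa, Cma1 and Tpsb2 were lost (limma adjusted p 0.0553, 0.0818 and 0.091), as was that of Tpsb2 with the mean of its probe sets (0.132). Below the filter, Cpa3 (log2 -1.41, SE 0.38) and Mcpt4 (-0.40, SE 0.13) lay lower in the LH transgenic pools without overlap. Hdc (-0.94, SE 0.51), Tpsab1, Fcer1a and Ms4a2 overlapped. Among the wild type pools Cma1 was lowest in pool 1 (1097.7, against 2074.0 and 2882.4), as were the brighter Tpsb2 probe set, Cpa3 and Mcpt4. Hdc was lowest in pool 2 of each group (160.2 and 22.1), as was the brighter Tph1 probe set. The part of mast cells in the Tph1 difference was not tested.

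Most tested genes of the other luminal class rose, while Kit, Lalba and Ltf were not called. Of 19 tested alveolar and luminal progenitor genes 15 rose and 1 fell, beside 10% and 11.7% of all genes, with a median log2 difference of 0.99 beside 0.01. The count that rose was 8 on the scale of the bacterial controls and 5 with the muscle covariate. Elf5, the alveolar transcription factor, rose from 17485.4, 17691.3 and 8466.0 to 28175.9, 30300.6 and 38743.7 (log2 1.21, SE 0.38, limma adjusted p 0.011). Of the milk genes, Csn1s2b rose by 2.84 (SE 0.82), Glycam1 by 2.16 (SE 0.48), Folr1 by 1.71 (SE 0.54) and Wap by 1.62 (SE 0.55). All 4 calls were lost with the muscle covariate (limma adjusted p 0.207, 0.0627, 0.181 and 0.137), and that of Wap also with robust eBayes (0.0579). The gene that fell, named after its value was seen, was Aldh1a3, an enzyme of retinoic acid synthesis found in luminal progenitors, with 607.2, 793.0 and 667.3 in the wild type and 408.4, 250.2 and 292.5 in the LH transgenic pools (log2 -0.97, SE 0.20), a call also lost with the muscle covariate (limma adjusted p 0.0846).

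On the deposited scale, markers of luminal or all epithelial cells were not lower as a group. Of 11 tested, 4 rose and 1 fell, beside 10% and 11.7% of all genes, and the median log2 difference was 0.52. Krt8 and Krt18, the keratin pair of luminal cells, had log2 differences of 0.27 (SE 0.19) and 0.04 (SE 0.14) and were not called. The tight junction genes Cldn3 (0.79) and Cldn7 (0.67) and the protease inhibitor gene Spint1 (0.71) were among those that rose, and the keratin gene Krt7 fell by 0.69. With the muscle covariate, and on the scale of the bacterial controls, 0 rose. On the latter scale 3 fell and the list median was -0.16, where 3146 of all 5731 genes fell and their median was -0.64. On leaving out pool 2 or 3 of the wild type, or pool 1 of the LH transgenic group, 2 rose, Spint1 not among them, and the Krt7 call was lost when wild type pool 3 was left out. Of 8 tested basal markers 1 rose, Acta2 (0.66), and 1 fell, Lgals7 (-1.57), beside the same shares of all genes, and the Acta2 call was lost with the muscle covariate (limma adjusted p 0.0571). On the scale of the bacterial controls Krt8, Krt18, Cldn7 and Acta2 lay below 0.

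**Figure D4:**
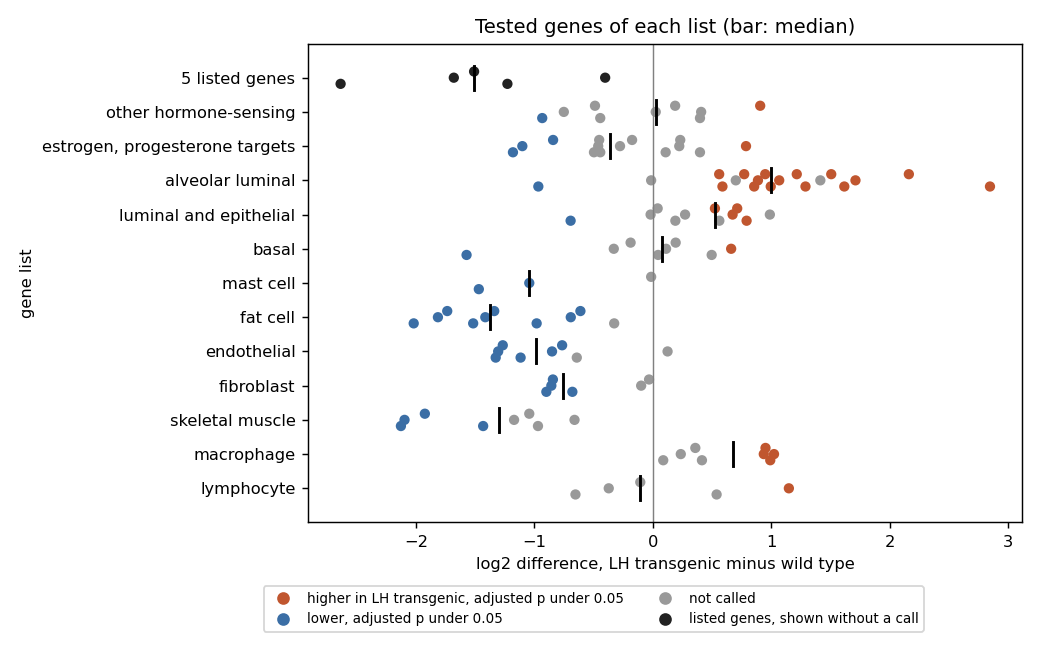
Log2 difference (LH transgenic minus wild type) of each tested gene in 13 lists, with a bar at the median of the list. Cited1, Foxa1, Prom1, Tph1 and Stc2 are in black without a call, red points rose and blue points fell at a limma adjusted p under 0.05; the median is -1.51 for the 5 genes, 0.02 for the other hormone-sensing genes and 0.99 for the alveolar genes.

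Markers of several other cell types moved in the same contrast, and their part in the differences of the 5 genes was not tested. Over all genes 11.7% fell and 10% rose. Fat cell markers fell in 9 of 10 tested members, with summed signals of 176307.0 to 209387.3 in the wild type and 85943.7 to 99233.3 in the LH transgenic pools. Endothelial markers fell in 6 of 8 and fibroblast markers in 4 of 6. Skeletal muscle markers fell in 4 of 8, with summed signals of 80969.5 to 94252.4 in the wild type and 17901.7 to 70583.1 in the LH transgenic pools. Macrophage markers rose in 4 of 8, and of 5 tested lymphocyte markers 1 rose. No marker of these lists was at 0. When the muscle level was a covariate, log2 differences were -2.96 for Cited1, -1.27 for Prom1, -1.21 for Tph1, -0.81 for Foxa1 and -0.62 for Stc2. Arrays on the scale of the bacterial controls had a median log2 difference of -0.64 over all genes, and on that scale the 5 genes had -3.30, -2.27, -2.10, -1.88 and -1.05 in that order. Relative to that median, the order and the sign of the 5 did not change.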

How the data were processed

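The deposited table holds a linear intensity for every probe set, and the submitters' processing notes name MAS5 as its source. The version, detection calls and build are not stated in the sources used here. Per the labels' protocols, oligo-dT primed cDNA was transcribed into biotin-labelled cRNA. The table held 12488 probe sets, 66 of them controls, with a 2% trimmed mean of 1500.8 to 1500.9 on every array, so it was used unscaled. MAS5 scaling hides a shift of most genes in 1 direction. The number of arrays limits the precision.

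Genes were named from the platform annotation (10833 probe sets with 1 gene, 396 with several, 1193 with none). The gene IDs of the 5 genes were found in the GRCm38.p6 table, and promoters are RefSeq's. The pseudocount 80.0 and the filter 336.0 are the 20th percentile of all values and the 40th of the means, without controls. Testing used limma 3.58.1 in R 4.3.3 (lmFit, eBayes with a trend, no covariates), two-sided, with Benjamini-Hochberg adjustment at 0.05. Each gene was represented by its brightest tested probe set, with a new adjustment over 5731 genes. The fit was tested on simulated data. Python 3.11.15 with matplotlib 3.10.9 drew the figures.

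The members, lists and alternatives were chosen with earlier results of these data known. Named genes were up to 6 called genes by size from the other hormone-sensing and the hormone target lists, up to 4 from other lists (2 by p where none was called), Esr1, Pgr, Prlr, Areg, Elf5, Kit, Krt8 and Krt18, and the 3 nearest profiles per gene; Aldh1a3 and the remaining tested hormone-sensing genes were added later. Lists of other cell types are given as counts. Groups came from the source name, and replicate numbers are names only.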

Additional observations from a re-analysis of the deposited data

How the results depend on the processing

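Cited1, Foxa1, Prom1, the brighter Tph1 probe set and Stc2 had a log2 difference below 0 in each of 12 other settings. The dim Tph1 probe set turned to -0.14 with the bacterial controls as the scale, and ran from -0.011 to 0.34 over fits without 1 array. The bacterial controls as the scale gave 3242 called genes (96 higher, 3146 lower, so 2.96% higher against 46.1% in the fit reported) and 3999 called probe sets. Called genes, higher and lower, were then 0 and 5 among the other hormone-sensing genes, 0 and 9 among the hormone targets, 8 and 2 among the alveolar genes and 0 and 3 among the epithelial markers. On that scale Cited2 (-0.012), Cldn7 (-0.00055), Acta2 (-0.025), Krt8 (-0.41), Krt18 (-0.65), Tnfsf11 (-0.24), Gata3 (-0.49), Ptges (-0.27) and Rspo1 (-0.64) lay below 0, where all genes had -0.64. With the skeletal muscle covariate, which leaves fewer residual degrees of freedom, 494 genes (197 higher, 297 lower) and 615 probe sets were called. The muscle list means were 12.36, 12.47 and 12.24 in the wild type and 10.22, 10.47 and 12.09 in the LH transgenic pools. Muscle level thus mostly followed the group, and that fit cannot fully separate them. None of the other hormone-sensing genes was called then (0 higher, 0 lower), 0 hormone targets rose, 5 alveolar genes rose and 0 fell, 0 epithelial markers rose, and Kit (0.39), Krt8 (-0.088) and Krt18 (-0.27) turned sign. Without a filter 2 other hormone-sensing genes fell, with the stricter filter 0 alveolar genes fell, and with the mean of all probe sets 0 other hormone-sensing genes rose. Kit turned to 0.018 after quantile normalization.

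Leaving out 1 array at a time gave 729 to 1307 called genes (307 to 570 higher, 422 to 737 lower) and 941 to 1641 called probe sets. The lowest counts came on omitting pool 3 of the wild type. Omitting pool 1 of the wild type left 362 genes called higher, and omitting pool 1 of the LH transgenic group left 381. In these fits 1 to 2 other hormone-sensing genes rose and 1 to 2 fell, 2 to 6 epithelial markers rose and 0 to 1 fell, 12 to 16 alveolar genes rose, and 2 to 4 hormone targets fell. Over these fits genes near 0 changed sign, namely Kit (-0.19 to 0.18), Krt18 (-0.029 to 0.16), Crebbp (-0.15 to 0.037) and Rspo1 (-0.12 to 0.23). Over 558 pairs of a named gene and a setting, 34 lost a call, 15 gained one and 23 changed sign. The cause of these changes was not tested. No paired analysis was possible because the labels give no number that pairs arrays across groups.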
